A study of Mus musculus with 6 samples.

Results

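The 9 genes described here encode cytotoxic effector molecules of lymphocytes: the granzymes Gzma, Gzmb, Gzmk and Gzmm, the pore-forming protein perforin (Prf1), interferon-gamma (Ifng), Fas ligand (Fasl), the granule membrane protein Nkg7 and the inhibitory receptor Klrg1. They were chosen by gene symbol from the 31054 features of the deposited tables, and all 9 were found. Their raw counts were followed in lung cells gated by marker genes as natural killer, CD8 T, CD4 T and gamma-delta T cells. No gate used any of the 9 genes.

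The data are 6 droplet-based single-cell RNA libraries of mouse lung. The 3 libraries labelled p16-DTR came from male C57BL/6 mice of 21 months with the alleles p16-CreERT2 and R26-LSL-DTR, and the 3 control libraries from male C57BL/6 mice of the same age with p16-CreERT2 alone. Both groups received tamoxifen for 5 days and, after 2 weeks, diphtheria toxin for 5 days, and lungs were taken 2 weeks later. Each library mixed 20000 sorted CD45- cells with 9000 CD45+ cells of 1 tissue, so the mix of leukocytes with other cells was set by the sort. In this model the p16 promoter drives the tamoxifen-dependent Cre, and the toxin receptor (DTR) is made only where Cre has removed a stop cassette. The labels number the samples but do not state that each is a different mouse, so the p-values measure the spread between these samples.

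The libraries held 13482 to 17332 barcodes and 254200305 to 344421685 UMIs (unique molecular identifiers, each standing for 1 captured RNA molecule), and 12346 to 15744 cells per library were retained. Any pair of libraries shared 59 to 94 barcode sequences, at most 0.586% of a library. The treatment was meant to remove cells with high p16, but Cdkn2a, the gene of p16, had 6.78, 8.44 and 7.20 CPM (counts per 1e6 UMIs) over all retained cells of the p16-DTR-labelled libraries and 1.17, 2.55 and 2.68 in controls. Cdkn2a was thus higher, not lower, in these sums over all cells of the p16-DTR-labelled libraries. Whether cells with high p16 were lost was not tested, so every direction below is between the libraries as labelled. A tdTomato entry of the tables had 77, 64 and 82 UMIs in the p16-DTR-labelled libraries and 0 in each control.

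Cytotoxic lymphocytes kill other cells by releasing granules in which perforin opens the target's membrane and granzymes, a family of serine proteases, enter and cleave proteins that trigger cell death. Fas ligand kills by a separate route, through a death receptor on the target, and interferon-gamma signals to macrophages and tissue cells. Natural killer cells hold this machinery ready in the resting lung, CD8 T cells acquire it with activation, and CD4 and gamma-delta T cells express parts of it in some states.

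Of the 9 genes, 8 matched an entry in a RefSeq promoter table (GRCm38.p6). The 250 bases before the RefSeq start are shown for Gzmb (chr14:56262335-56262584, minus strand), Gzmk (chr13:113180966-113181215, minus strand), Prf1 (chr10:61297586-61297835, plus strand) and Fasl (chr1:161788496-161788745, minus strand). These are 4 of the 6 genes that rose in CD4 T cells, as described below. The windows of the others, Ifng and Nkg7, are not shown. Capitals mark matches on either strand to a T-box motif (GGTGTG, or CACACC on the other strand), a RUNX motif (TGTGGT or ACCACA) and an AP-1 motif (TGANTCA), searched because factors of these families are known regulators of effector genes.
Gzmb: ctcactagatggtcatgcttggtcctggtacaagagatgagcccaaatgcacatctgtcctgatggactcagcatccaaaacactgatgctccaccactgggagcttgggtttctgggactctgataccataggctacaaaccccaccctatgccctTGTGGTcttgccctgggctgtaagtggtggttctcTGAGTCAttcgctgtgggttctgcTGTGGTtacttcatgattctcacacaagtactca
Gzmk: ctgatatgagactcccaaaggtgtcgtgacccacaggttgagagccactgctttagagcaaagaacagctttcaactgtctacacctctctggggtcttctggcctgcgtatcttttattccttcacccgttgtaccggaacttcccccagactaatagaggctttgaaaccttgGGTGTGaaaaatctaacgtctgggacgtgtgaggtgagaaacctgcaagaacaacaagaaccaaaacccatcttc
Prf1: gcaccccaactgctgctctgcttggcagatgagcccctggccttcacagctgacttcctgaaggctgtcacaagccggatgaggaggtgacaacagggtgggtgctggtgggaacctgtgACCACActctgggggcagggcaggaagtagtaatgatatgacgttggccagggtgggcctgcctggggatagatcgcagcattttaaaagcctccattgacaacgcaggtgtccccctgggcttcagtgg
Fasl: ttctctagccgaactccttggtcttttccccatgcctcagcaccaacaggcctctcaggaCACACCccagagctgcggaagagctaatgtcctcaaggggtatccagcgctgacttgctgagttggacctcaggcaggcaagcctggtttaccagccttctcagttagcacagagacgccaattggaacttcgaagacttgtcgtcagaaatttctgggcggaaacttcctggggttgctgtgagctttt
The capitals in Gzmb are RUNX matches and an AP-1 match that starts 58 bases before the start of the transcript. In Prf1 they are a RUNX match 130 bases before it, in Gzmk a T-box match 75 bases before it and in Fasl a T-box match 190 bases before it. Over all 8 genes, the RUNX motif was found in 5 (Gzma, Gzmb, Gzmm, Prf1 and Nkg7), the T-box motif in 3 (Gzmk, Fasl and Nkg7) and the AP-1 motif in 1 (Gzmb). None of the 3 was found in the window of Ifng, and of the entries of Gzmm the first was used. The other Gzmm entry held a T-box match 189 bases before its start and no RUNX match, so these counts depend on that choice. They also depend on the RefSeq starts, which differ from the GENCODE M21 gene ends for some genes. The Gzmk window lies inside its GENCODE span, chr13:113171608-113225908. The Gzmb window does not reach its GENCODE start at 56262260. For Nkg7 the window, chr7:43436888-43437137, runs past its GENCODE start at 43437073, and its T-box match lies inside the gene. Among 32851 promoters of the same length, 14.0% held the RUNX motif, 16.3% the T-box motif and 6.75% the AP-1 motif. A match describes letters in the window and is no evidence of binding. The motifs were chosen after the CD4 values were known.

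The natural killer gate had the highest mean level of 7 of the 9 genes, and the CD8 T gate that of Gzmk and Gzmm. All levels are CPM, counts per 1e6 UMIs of the gate's cells in a library, and ranges are over the 6 libraries. Levels are compared between cells for 1 gene at a time, since 3' counts of different genes were not scaled to each other. The gates held 407 natural killer, 1273 CD8 T, 914 CD4 T and 241 gamma-delta T cells from the p16-DTR-labelled libraries, and 279, 841, 908 and 203 from controls.

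Gzma, an abundant granzyme with tryptase activity, ranged from 6688 to 9075 CPM in natural killer cells, far above its 66.9 to 300 CPM in CD8 T cells. Its ranges in CD8, gamma-delta (1.02 to 448 CPM) and CD4 T cells (1.42 to 60.5 CPM) overlapped from each gate to the next. Gzmb, the granzyme that activates caspases, had 809 to 1542 CPM in natural killer cells and 62.1 to 288 CPM in CD8 T cells, and these ranges did not overlap. Between these gates stood basophils or mast cells, with 303 to 1142 CPM of Gzmb, a range that overlapped that of natural killer cells. Prf1 had 1396 to 1911 CPM in natural killer cells, 97.3 to 145 in CD8 T cells and 8.55 to 78.5 in CD4 T cells, with no overlap between neighbours in this order. Its level in gamma-delta T cells (11.2 to 54.4 CPM) overlapped that in CD4 T cells.

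Gzmk, a granzyme of memory-like T cells, was nearly absent from natural killer cells, at 0 to 3.76 CPM. It had 78.7 to 241 CPM in CD8 T cells and 44.1 to 258 CPM in CD4 T cells, which overlapped, and 0 to 10.2 CPM in gamma-delta T cells. Gzmm was highest in CD8 T cells, at 30.1 to 113 CPM against 4.69 to 24.8 CPM in natural killer cells, without overlap. In CD4 T cells it had 1.73 to 4.01 CPM, a range that overlapped the 3.37 to 4.77 CPM of mesenchymal cells.

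Ifng had 109 to 161 CPM in natural killer cells, and its ranges in CD4 T cells (25.2 to 90.5 CPM) and CD8 T cells (20.2 to 57.9 CPM) overlapped. Fasl fell from 402 to 515 CPM in natural killer cells to 153 to 224 CPM in CD8 T cells without overlap, and its range in CD4 T cells, 57.4 to 185 CPM, overlapped that of CD8 T cells. Nkg7 had 2308 to 2665 CPM in natural killer, 855 to 1365 CPM in CD8 T and 112 to 653 CPM in CD4 T cells, with no overlap between neighbours. Klrg1, a receptor for cadherins on mature lymphocytes, had 205 to 331 CPM in natural killer cells, and the next level was that of type 2 innate lymphoid cells, at 75.9 to 220 CPM in 105 cells over 6 libraries. The ranges of these latter gates overlapped. In B cells, neutrophils, mononuclear phagocytes, endothelium, mesenchyme and epithelium without basophil markers, the mean level of every one of the 9 genes was at most 4.85 CPM, that of Prf1 in B cells.

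**Figure D1:**
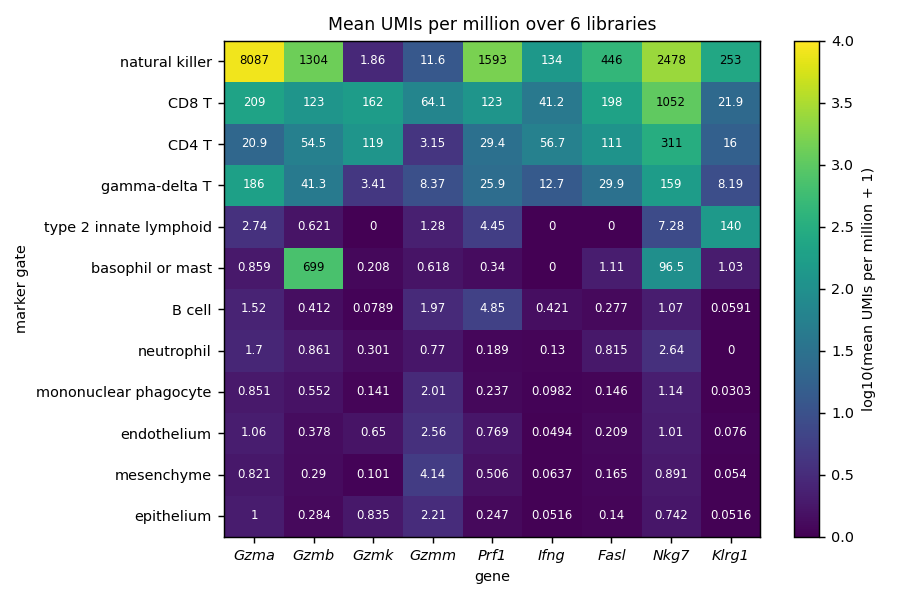
Mean CPM of each gene (columns) over the 6 libraries in each marker gate (rows); the colour is log10 of the mean plus 1, and the mean itself is printed in each cell. Natural killer cells lead for 7 genes, Gzmk and Gzmm are highest in CD8 T cells, Gzmb is also high in basophils or mast cells, and Klrg1 in type 2 innate lymphoid cells.

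Of the 4 gates, the CD4 T gate was the one in which any of the 9 genes passed the test of the groups. There 6 of the 9 genes rose in the p16-DTR-labelled libraries (edgeR quasi-likelihood test, Benjamini-Hochberg adjusted p under 0.05, here called): Gzmb, Gzmk, Prf1, Ifng, Fasl and Nkg7. Of all 11295 genes tested in this gate, 2.1% were called higher and 3.59% called lower. The fitted log2 fold change was above 0 for all 9 genes, with a median of 1.82 against 0.00 over all genes tested. Gzma, Gzmm and Klrg1 did not pass the test.

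Gzmb had 140, 102 and 43.6 CPM in the p16-DTR-labelled libraries and 20.6, 5.78 and 15.5 CPM in controls. Every value of the first group was above every control, with means of 95.1 ± 48.6 and 13.9 ± 7.51 CPM (SD, n = 3 each), a 6.82-fold difference. The log2 fold change was 2.74 (standard error 0.48, adjusted p 0.0124). Gzmk had 202, 258 and 114 CPM against 44.1, 53.1 and 45.6 CPM. The controls lay within a narrow band that the other libraries did not reach, and the log2 fold change was 1.96 (standard error 0.26, adjusted p 0.00368). Both Gzmb and Gzma rested on few cells in some libraries. Gzmb was found in 7 to 58 CD4 T cells per library, and the cell with most Gzmb held 8.45% to 41.8% of its UMIs. Gzma was found in 5 to 22 cells: it had 19.9, 60.5 and 26.3 CPM against 14.4, 3.08 and 1.42 CPM, and in 1 library a single cell carried 79.4% of its UMIs. The groups did not overlap, but the adjusted p was 0.0549 (log2 fold change 2.65, standard error 0.67). Without control replicate 1 the log2 fold change was 3.99 and edgeR called Gzma, with an adjusted p of 0.0141; over the other libraries left out in turn the adjusted p was 0.0633 to 0.2005. It was also called with no filter on low counts and with equal cell numbers. Gzmm stayed low, at 2.84 to 3.56 CPM against 1.73 to 4.01 CPM (log2 fold change 0.07, standard error 0.37).

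Prf1, without which granzymes do not reach the target's cytoplasm, had 37.9, 78.5 and 26.9 CPM in the p16-DTR-labelled libraries and 8.55, 11.4 and 13.6 CPM in controls. The means differed 4.28-fold with no overlap, and the log2 fold change was 2.03 (standard error 0.38, adjusted p 0.0154). Without control replicate 1 its adjusted p was 0.0617. Nkg7, which takes part in granule release, had 398, 653 and 411 CPM against 143, 150 and 112 CPM. Its lowest value in the p16-DTR-labelled libraries was above the highest control, and the log2 fold change was 1.82 (standard error 0.19, adjusted p 0.00147).

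Fasl had 142, 185 and 149 CPM in the p16-DTR-labelled libraries and 71.6, 57.4 and 60.5 CPM in controls. It had the smallest adjusted p of the 9 genes in this gate, 9.43e-04, with a log2 fold change of 1.30 (standard error 0.12). Ifng had 61.8, 88.3 and 90.5 CPM against 44.9, 29.3 and 25.2 CPM. The groups did not overlap, and the log2 fold change was 1.28 (standard error 0.21, adjusted p 0.00947). Klrg1 had 24.3, 29.5 and 11.7 CPM against 14.96, 8.67 and 7.10 CPM, where p16-DTR replicate 3 lay below control replicate 1, and it was not called (log2 fold change 1.08, standard error 0.37, adjusted p 0.148). Klrg1 was called by DESeq2 (adjusted p 0.0389), with no filter on low counts (edgeR adjusted p 0.00719) and without p16-DTR replicate 3 (edgeR adjusted p 0.0397). In all, 7 of the 9 genes had higher CPM in each p16-DTR-labelled library than in any control, beside 14.5% of all genes tested.

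The called genes lie on different chromosomes or far apart: in GENCODE M21 coordinates of GRCm38, Gzmb spans chr14:56258838-56262260, Gzmk chr13:113171608-113225908, Prf1 chr10:61297833-61304680, Ifng chr10:118441046-118445892, Fasl chr1:161780689-161788495 and Nkg7 chr7:43437073-43438249. All are protein-coding genes. Gzma, at chr13:113093825-113100981, is the neighbour of Gzmk on the same strand.

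**Figure D2:**
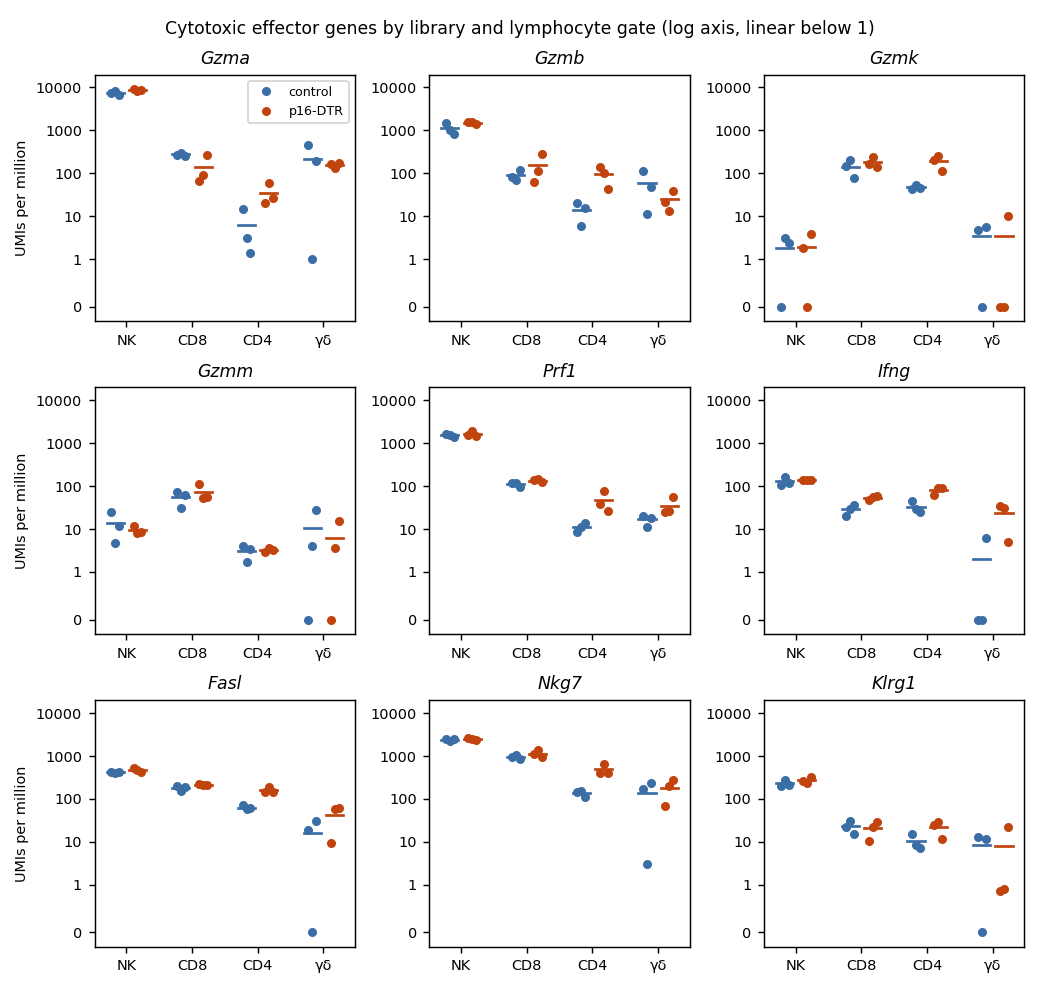
CPM of each gene in each library (points) with the group mean (bars), by gate, on a log axis that is linear below 1; control libraries are blue and p16-DTR-labelled libraries red. In the CD4 gate the red points of Gzma, Gzmb, Gzmk, Prf1, Ifng, Fasl and Nkg7 all lie above the blue points, while in natural killer cells most points of the groups mix.

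The share of CD4 T cells with a UMI, counted from the same UMIs as the CPM, was higher in the p16-DTR-labelled libraries for 6 genes. After thinning each cell to 3000 UMIs, so that depth was equal, Nkg7 was found in 38.7%, 46.1% and 41.7% of CD4 T cells of the p16-DTR-labelled libraries and 14.7%, 16.4% and 13.7% of those of controls. Without thinning the means were 50.7% and 21.1%. Fasl was found in 31.6% ± 2.78 against 14.0% ± 1.43, Gzmk in 22.6% ± 6.97 against 6.18% ± 0.388 and Ifng in 15.6% ± 0.886 against 7.39% ± 1.29 (SD, n = 3 each). Gzmb was found in 11.4% ± 5.50 against 2.09% ± 1.07 and Prf1 in 9.77% ± 3.88 against 2.86% ± 0.160. For these 6 genes the groups did not overlap in CD4 T cells, and each exact two-sided permutation p was 0.1, the smallest that 3 libraries against 3 can give (0.40 after adjustment over 36 shares). Of all genes tested by edgeR in this gate, 9.8% had thinned shares that were higher in the p16-DTR-labelled libraries without overlap. Without thinning, Fasl had means of 55.9% and 33.2%, Gzmk 31.1% and 9.53%, Ifng 34.3% and 17.3%, Gzmb 16.03% and 4.19% and Prf1 22.5% and 10.1%; Gzma, whose thinned shares overlapped, then had 5.75% and 2.97% without overlap.

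The shares were set beside those of B cells, which are not cytotoxic lymphocytes. Their thinned share was 0.366% and 0.253% for Nkg7, 0.0604% and 0.169% for Fasl, 0.0895% and 0.0399% for Ifng, 0.166% and 0.183% for Gzmb and 0.937% and 1.32% for Prf1 (p16-DTR-labelled libraries, then controls). Gzmk was found in 0 of 4388 thinned B cells, which allows up to 0.0684% of cells with a UMI at 3000 UMIs per cell, for counting error only; without thinning it was found in 0.251% and 0%. The median depth was 13582 and 12482 UMIs in B cells and 13547 and 15698 UMIs in CD4 T cells. The shares of Gzma in CD4 T cells, 2.03% and 1.11%, and of Gzmm, 1.20% and 0.884%, were closer to those of B cells (0.541% and 0.227% for Gzma, 0.503% and 0.562% for Gzmm). B cells do not measure free RNA alone for each gene: Prf1 had 3.26 to 6.63 CPM in B cells and at most 1.08 CPM in endothelium, while Gzmm had a mean of 1.97 CPM in B cells and 4.14 CPM in mesenchyme.

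Cells with Gzmk carried Nkg7, Fasl and Prf1 more often than the rest of the CD4 T gate. Over the 1804 thinned CD4 T cells of all libraries, 248 had a Gzmk UMI, and 84.3% of these had Nkg7, 54.8% Fasl and 29.0% Prf1. In the CD4 T cells without Gzmk the figures were 19.9%, 17.7% and 2.51%. The mean number of the 9 genes found per CD4 T cell was 1.41 ± 0.208 in the p16-DTR-labelled libraries and 0.518 ± 0.0440 in controls, and 24.7% against 5.92% of cells had at least 3 of them. No B cell had 3. These co-detection shares pool cells of all libraries and are a description. Gzmk was found in a larger share of CD4 T cells of the p16-DTR-labelled libraries than of controls. The cells with and without Gzmk thus differ in group make-up, and co-detection with Gzmk was not counted within each group.

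**Figure D3:**
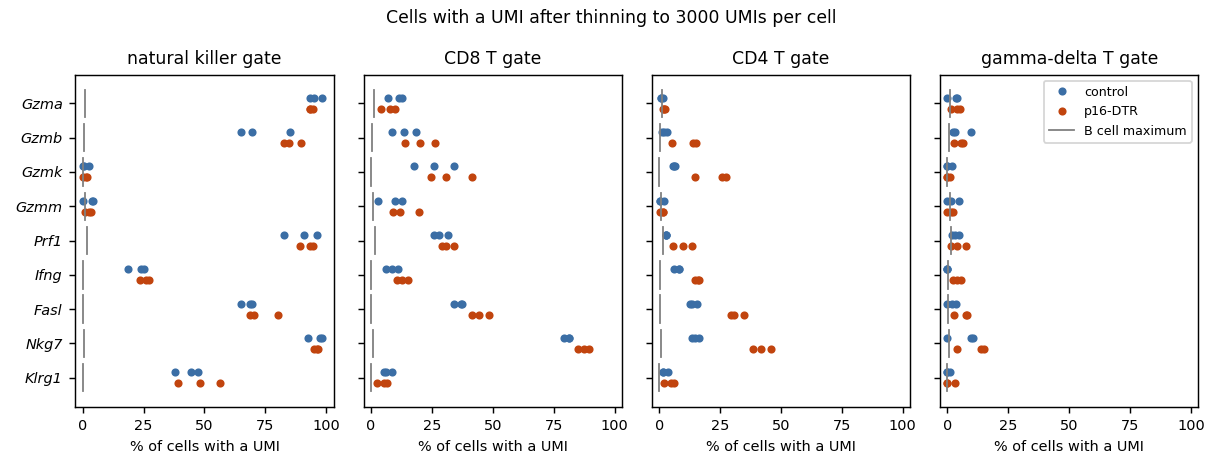
Share of cells with a UMI of each gene after thinning to 3000 UMIs per cell, for each library (points; control blue, p16-DTR-labelled libraries red), by gate; the grey line is the highest share in B cells of any library. In the CD4 gate the red points of 6 genes lie to the right of the blue points and of the grey line.

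The CD4 T gate also differed in its make-up. Cells with a UMI of an interleukin 17 marker (Il17a, Il23r or Cd163l1) and none of Foxp3 made up 12.3%, 2.27% and 3.24% of the gate in the p16-DTR-labelled libraries and 35.8%, 44.0% and 31.5% in controls, without overlap (exact permutation p 0.1, adjusted 0.3). Cells with none of these markers, no Foxp3 and at most 1 of the naive markers Ccr7 and Lef1, here called remaining cells, made up 60.7% ± 6.83 against 29.9% ± 1.09 (SD, n = 3 each), again without overlap. The shares of Foxp3 cells, which mark regulatory T cells (10.6% and 9.21%), and of cells with both naive markers (22.8% and 23.8%) overlapped. Nkg7 was low in interleukin 17 marker cells of controls, at 19.2, 14.8 and 16.96 CPM, against 487, 457 and 283 CPM in the remaining cells of the same libraries. Control means were also lower there than in the remaining cells for Gzma, Gzmb, Gzmk, Prf1, Ifng (16.01 against 86.0 CPM) and Fasl (33.7 against 146 CPM), but not for Gzmm (3.81 against 2.37 CPM) and Klrg1 (5.10 against 3.83 CPM).

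Several differences persisted in direction in the remaining cells and in cells with both naive markers, with smaller log2 fold changes in the remaining cells than in the whole gate for the 6 called genes. Nkg7 in the remaining cells had 671, 869 and 598 CPM in the p16-DTR-labelled libraries, above every control. Fasl had 259, 249.3 and 219.7 CPM there against 184, 117 and 137 CPM, and Prf1 70.8, 109 and 32.1 CPM against 14.5, 22.9 and 23.2 CPM. Gzmb had 283, 144 and 70.3 CPM against 63.2, 14.6 and 28.3 CPM and Gzmk 347, 341 and 169 CPM against 122, 167 and 94.1 CPM, also without overlap. The share of all genes without overlap was not counted within any CD4 state, so such values stand without a background. Ifng overlapped between the groups in the remaining cells, at 106, 127 and 139 CPM against 118, 82.6 and 57.3 CPM. In cells with both naive markers Nkg7 had 245, 351 and 224 CPM against 23.4, 65.8 and 87.7 CPM, and Gzmk 163, 152 and 71.2 CPM against 52.4, 37.1 and 62.3 CPM. Fasl (57.8, 87.9 and 73.4 CPM against 41.2, 35.0 and 44.9 CPM) and Gzmb (10.8, 13.5 and 8.90 CPM against 0 in each control) did not overlap there either. Prf1 (17.5, 29.6 and 33.4 CPM against 18.9, 23.3 and 20.1 CPM) and Ifng (37.7, 18.8 and 25.2 CPM against 18.9, 18.0 and 14.3 CPM) overlapped there. In interleukin 17 marker cells, only 25, 7 and 13 in the p16-DTR-labelled libraries, Nkg7 had 98.9, 128 and 197 CPM in these libraries, above the controls. Fasl (41.7, 75.0 and 112 CPM against 38.5, 38.7 and 23.7 CPM) and Gzmb (22.0, 60.0 and 8.95 CPM against 1.48, 0.412 and 1.45 CPM) did not overlap in these cells either, while Gzmk, Prf1 and Ifng did. In Foxp3 cells 4 of the called genes had lower means in the p16-DTR-labelled libraries: Gzmb had means of 13.4 and 39.9 CPM there, Fasl 2.57 and 8.70 CPM, Prf1 3.48 and 4.18 CPM and Nkg7 36.2 and 37.7 CPM (p16-DTR-labelled libraries, then controls), all with overlap. Ifng had a higher mean, 6.33 against 1.61 CPM, also with overlap. Klrg1 was highest in Foxp3 cells, at 55.7 to 104 CPM and 54.8 to 104 CPM in the groups, where Gzmk had 0, 0 and 1.16 CPM against 0 in each control.

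With interleukin 17 marker cells left out, an alternative chosen after seeing the data, 2 of the 9 genes were called: Fasl (log2 fold change 1.00, standard error 0.12, adjusted p 0.0139) and Nkg7 (1.23, standard error 0.20, adjusted p 0.0356). Of all genes, 0.207% were called higher in that fit. Gzmb (2.27), Gzmk (1.36), Ifng (0.89) and Prf1 (1.45) kept a positive log2 fold change with adjusted p of 0.0751, 0.0707, 0.105 and 0.127. In the remaining cells alone edgeR called none of the 8 genes tested and none of all 9320 genes tested, while 672 genes had an unadjusted p under 0.05. The log2 fold changes there were 2.28 for Gzmb, 1.75 for Prf1, 1.15 for Gzmk, 0.80 for Nkg7, 0.74 for Fasl and 0.56 for Ifng, and the adjusted p was 0.336 for the first 5 and 0.592 for Ifng.

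**Figure D4:**
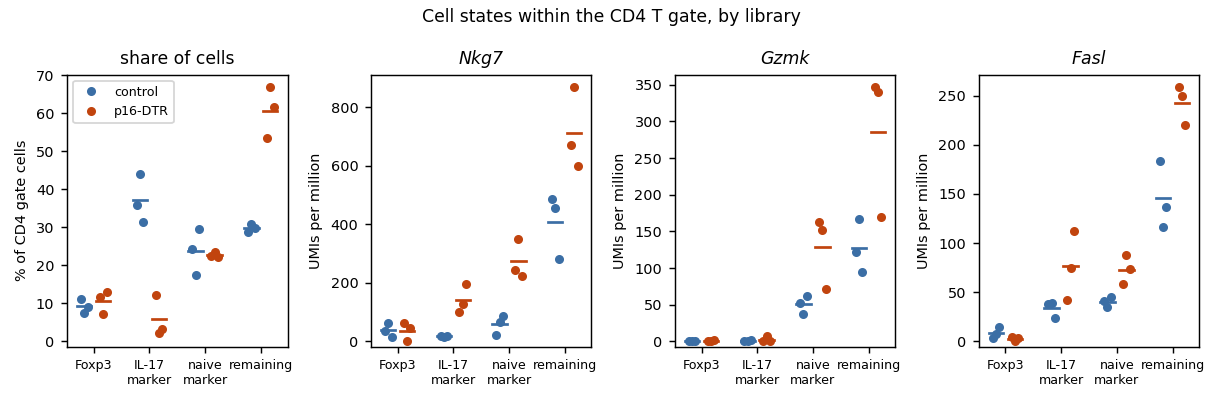
Share of CD4 T cells in each state (left) and CPM of Nkg7, Gzmk and Fasl within each state, for each library (points) with the group mean (bars); control blue, p16-DTR-labelled libraries red. Interleukin 17 marker cells are fewer in the p16-DTR-labelled libraries and low in Nkg7 in controls; Nkg7 and Fasl in the remaining cells lie above the controls in every p16-DTR-labelled library.

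Other markers moved with the groups in the CD4 T gate. All 7 dissociation stress genes were found, and their summed level was 2172 to 2375 CPM in the p16-DTR-labelled libraries and 2960 to 3082 CPM in controls. The 4 tissue residency markers summed to 183 to 218 CPM against 237 to 290 CPM and the 4 mature natural killer markers to 52.7 to 125 CPM against 150 to 204 CPM. Nearly all of the latter sum was Zeb2, at 50.8, 116 and 61.6 CPM against 198, 163 and 148 CPM; Itgam (means 2.89 and 2.93 CPM) and S1pr5 (1.77 and 0.537 CPM) overlapped, and Cma1 had at most 0.698 CPM. The 3 endothelial markers summed to 18.3 to 19.7 CPM against 15.1 to 16.4 CPM, and the 3 neutrophil markers to 5.99 to 7.12 CPM against 3.47 to 5.61 CPM. Median depth per cell was 13190 to 14397 UMIs against 14989 to 15864 UMIs, and mitochondrial UMIs were 1.68% to 1.82% against 1.81% to 1.88%. Their part in the result was not tested. The 3 natural killer markers summed to 5.99 to 37.5 CPM against 3.27 to 11.8 CPM, which overlapped; with cells carrying any of them left out, 6 of the 9 genes were called higher, beside 1.87% of all genes. Cd8a, Cd8b1 and Trdc were at 0 in this gate by its definition. With cells of other lineages not excluded, Gzmb (adjusted p 0.0566) and Prf1 (adjusted p 0.0523) were no longer called.

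In the CD8 T gate none of the 9 genes was called, beside 0.0088% of 11368 genes tested; 1057 genes had an unadjusted p under 0.05, and DESeq2 called 90. The median log2 fold change of the 9 genes was 0.29, against 0.00 over all genes. Ifng came closest, with 46.8, 55.9 and 57.9 CPM in the p16-DTR-labelled libraries and 20.2, 29.2 and 37.0 CPM in controls. The groups did not overlap, the means differed 1.86-fold, and the log2 fold change was 0.86 (standard error 0.17, adjusted p 0.116); DESeq2 called it. Prf1 (138, 145 and 122 CPM against 116, 118 and 97.3 CPM) and Fasl (224, 215 and 209 CPM against 201, 153 and 185 CPM) did not overlap either. Their log2 fold changes were 0.29 (standard error 0.10, adjusted p 0.416) and 0.26 (standard error 0.10, adjusted p 0.484). These 3 of 9 genes stand beside 7.26% of all genes whose groups did not overlap with higher values in the p16-DTR-labelled libraries.

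Gzma in CD8 T cells had 66.9, 90.9 and 273 CPM in the p16-DTR-labelled libraries and 273, 300 and 251 CPM in controls. Replicate 3 of the first group lay among the controls and the other p16-DTR-labelled libraries far below them (log2 fold change -0.91, standard error 0.41, adjusted p 0.541). Without p16-DTR replicate 3 the log2 fold change was -1.80 and edgeR called it, with an adjusted p of 0.00470. The same library had the highest Gzmb, with 62.1, 112 and 288 CPM against 82.6, 71.3 and 122 CPM (log2 fold change 0.73, standard error 0.45). Gzmk, Gzmm, Nkg7 and Klrg1 overlapped between the groups, with log2 fold changes from -0.06 to 0.36 and adjusted p of at least 0.608.

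Naive markers moved with these values: Ccr7 and Lef1 summed to 910 to 1045 CPM in CD8 T cells of the p16-DTR-labelled libraries and 1283 to 1484 CPM in controls, and the stress genes to 1503 to 1668 CPM against 1776 to 1841 CPM. Cells with both naive markers were 50.8% ± 8.51 and 62.6% ± 4.02 of the gate, with overlap. Among the other CD8 T cells, Ifng had 96.3, 101 and 114 CPM against 54.4, 76.3 and 104 CPM, and Prf1 176, 203 and 155 CPM against 186, 176 and 173 CPM; both overlapped. Gzma there had 208, 158 and 720.0 CPM against 995, 908 and 876 CPM, with each p16-DTR-labelled library below the controls. In the cells with both naive markers Ifng had 25.9, 12.97 and 24.5 CPM against 8.16, 6.13 and 10.7 CPM, without overlap. The share of all genes without overlap was not counted within these CD8 states. After thinning, Nkg7 was found in 87.3% ± 2.37 against 80.6% ± 1.24 of CD8 T cells and Fasl in 44.8% ± 3.57 against 36.1% ± 1.92, the 2 shares of this gate without overlap (each exact permutation p 0.1, adjusted 0.40), beside 6.26% of all genes tested in the gate. At least 3 of the 9 genes were found in 46.9% ± 1.88 against 36.3% ± 1.68 of CD8 T cells. Without thinning the means were 98.0% and 97.7% for Nkg7, which then overlapped, and 79.3% and 64.0% for Fasl. Gzmb (35.6% and 23.9%) and Prf1 (80.5% and 72.4%) did not overlap without thinning, at median depths of 17302 and 18659 UMIs.

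In natural killer cells, of 8 genes tested (Gzmk did not pass the filter on low counts), none was called, beside 0.157% of 8928 genes; 958 genes had an unadjusted p under 0.05, and DESeq2 called 84. Gzma had 9075, 8420 and 8877 CPM in the p16-DTR-labelled libraries and 7362, 8103 and 6688 CPM in controls. It was the only one of the 9 whose groups did not overlap, beside 7.4% of all genes, and the log2 fold change was 0.25 (standard error 0.09, adjusted p 0.328). Gzmb had 1542, 1539 and 1409 CPM against 1521, 1002 and 809 CPM, where control replicate 1 lay among the p16-DTR-labelled libraries (log2 fold change 0.43, standard error 0.18, adjusted p 0.422). Prf1 had 1561, 1911 and 1509 CPM against 1620, 1561 and 1396 CPM, and Nkg7 2665, 2506 and 2412 CPM against 2526, 2308 and 2450 CPM. Both overlapped, with log2 fold changes of 0.12 (standard error 0.11) and 0.06 (standard error 0.08). Ifng, Fasl, Klrg1 and Gzmm also overlapped.

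The median log2 fold change of the 8 genes in natural killer cells was 0.16, against 0.01 over all genes tested. The 3 natural killer markers summed to 2570 to 2749 CPM in the p16-DTR-labelled libraries and 2148 to 2422 CPM in controls, and the 4 markers of mature natural killer cells to 1545 to 1799 CPM against 1170 to 1372 CPM, both without overlap. Of these 4, Zeb2 (means 1043 and 720.3 CPM) and S1pr5 (160 and 91.3 CPM) did not overlap, while Itgam (216 and 213 CPM) and Cma1 (271 and 243 CPM) did. The 3 mesenchymal markers summed to 5.56 to 7.52 CPM against 10.9 to 24.8 CPM, the 4 epithelial markers to 3.76 to 6.52 CPM against 0 to 2.02 CPM and the 3 type 1 innate lymphoid markers to 32.8 to 35.2 CPM against 11.1 to 25.0 CPM. Of the type 1 innate lymphoid markers, Il7r was limited by the gate itself. Median depth per cell was 12181.5 to 13207 UMIs against 13469 to 14434 UMIs, also without overlap. The part of these markers and of depth in the values was not tested. With 46 to 172 natural killer cells per library, the smallest sums came from control replicates 1 and 2.

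Gamma-delta T cells gave the least certain values, with 54 to 93 cells per library. Their median depth was 14140 to 15242.5 UMIs in the p16-DTR-labelled libraries and 15414.5 to 15952.5 UMIs in controls, without overlap. The part of depth in the values was not tested. Of 6 genes tested (Gzmk, Gzmm and Ifng did not pass the filter), none was called, and 0% of 8554 genes were; 475 genes had an unadjusted p under 0.05, and DESeq2 called 7. Gzma had 167, 132 and 173 CPM in the p16-DTR-labelled libraries and 448, 1.02 and 198 CPM in controls. The controls spanned the whole range, and in each library the cell with most Gzma held 52.5% to 100% of the gate's Gzma UMIs. Prf1 had 24.4, 26.6 and 54.4 CPM against 20.5, 11.2 and 18.4 CPM and was the only one of the 9 without overlap, beside 6.19% of all genes (log2 fold change 1.07, standard error 0.37, adjusted p 0.850). Ifng had 34.9, 30.3 and 5.08 CPM against 0, 0 and 6.13 CPM, which overlapped. After thinning it was found in 4.05%, 5.48% and 2.15% of cells against 0 of 201 control cells, which allows up to 1.49% of cells with a UMI at 3000 UMIs per cell, for counting error only, and sets no limit on cells expressing the gene. These thinned shares did not overlap (exact permutation p 0.1, adjusted 0.40), but the shares without thinning, with means of 7.65% and 1.53%, did. Of all genes tested in this gate, 5.63% had higher thinned shares without overlap. At least 3 of the 9 genes were found in 5.69% ± 1.75 against 2.43% ± 2.12 of thinned cells (SD, n = 3 each), without overlap (exact permutation p 0.1). Nkg7 (68.9, 201 and 284 CPM against 169, 3.06 and 231 CPM), Gzmb (21.8, 12.8 and 39.2 CPM against 113, 11.2 and 49.1 CPM) and Fasl (9.60, 59.6 and 60.9 CPM against 19.3, 0 and 30.0 CPM) overlapped as well.

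**Figure D5:**
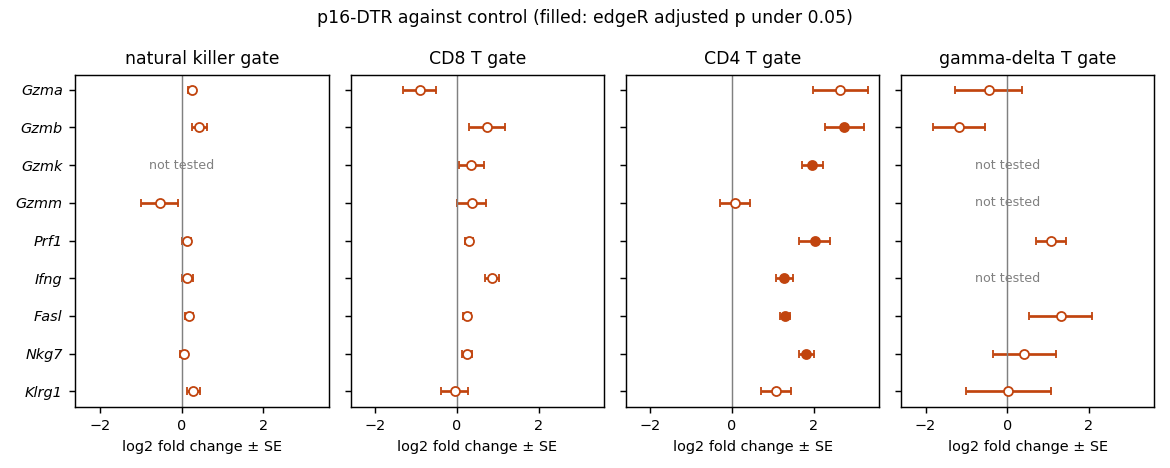
Fitted log2 fold change (p16-DTR-labelled libraries against controls) of each gene in each gate, with its standard error as the bar; filled points have an edgeR adjusted p under 0.05. The only filled points are the 6 called genes of the CD4 gate, between 1.28 and 2.74.

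Whether the group effect differed between the 4 gates was tested in 1 fit of all 24 sums with the library as a block. Prf1 was the only one of the 9 genes called (adjusted p 0.0497), beside 1.03% of 12120 genes tested. Relative to CD4 T cells, its log2 fold change was different by -1.85 in natural killer cells, -1.66 in CD8 T cells and -0.86 in gamma-delta T cells. The adjusted p was 0.0888, 0.108 and 0.0178 without p16-DTR replicate 1, 2 or 3, and 0.316, 0.205 and 0.163 without control replicate 1, 2 or 3, so the call was lost in 5 of these 6 fits. For Gzmb the adjusted p of the difference was 0.132, and 0.0217, which is past the threshold, without p16-DTR replicate 3; the other 5 such fits gave 0.245 to 0.448. With all libraries it was 0.253 for Gzmk, 0.322 for Gzma, 0.324 for Ifng, 0.417 for Fasl and 0.515 for Nkg7. The group effects called in CD4 T cells for Gzmb, Gzmk, Ifng, Fasl and Nkg7 are thus not shown to differ between gates with all 6 libraries.

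The size of the gates was set beside the levels. CD4 T cells made up 32.0% ± 1.66 of the cells of the 4 gates in the p16-DTR-labelled libraries and 42.6% ± 9.19 in controls (SD, n = 3 each), without overlap (exact permutation p 0.1, adjusted 0.4). Natural killer cells made up 15.02% ± 4.27 and 11.6% ± 3.92, CD8 T cells 44.1% ± 4.47 and 36.4% ± 6.63, and gamma-delta T cells 8.82% ± 1.84 and 9.46% ± 1.38, all with overlap. Over all retained cells of a library, of any kind, Gzmb had 23.4, 23.8 and 40.0 CPM against 9.42, 10.2 and 19.4 CPM, and Gzmk 7.25, 14.3 and 10.2 CPM against 3.15, 5.54 and 4.80 CPM, both without overlap, beside 11% of all genes tested in any gate. The other 7 genes overlapped between the groups in these sums. In such whole-library sums more cells of a type and more RNA per cell cannot be told apart.

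Other genes of the cytotoxic pathway, from lists of 6 to 18 genes, were called in the CD4 T gate and in none of the other 3 gates. The difference between gates was not tested for the lists. Few genes of any kind were called elsewhere: 0.157% in natural killer, 0.0088% in CD8 T and 0% in gamma-delta T cells. In natural killer cells 9 of 15 transcription factors had an unadjusted edgeR p under 0.05, beside 958 of all 8928 genes. For inhibitory receptors in CD8 T cells it was 7 of 14, beside 1057 of 11368. These were the highest list shares, and granule exocytosis had the lowest, 1 of 10 in both gates. In the CD4 T gate, 3 of 10 genes of granule contents and processing rose and none fell. They were the granzyme inhibitors Serpinb6b (log2 fold change 1.23, adjusted p 0.0228) and Serpinb9 (1.20, adjusted p 0.0117) and the cathepsin Ctsw (1.05, adjusted p 0.00464). Of the granule exocytosis machinery, 1 of 10 genes rose, the small GTPase Rab27a (0.65, adjusted p 0.0174). Among transcription factors, 5 of 18 rose and 4 fell. The T-box factors Eomes (1.98, adjusted p 0.00167) and Tbx21 (1.16, adjusted p 0.0124) rose, while Zeb2, a factor of terminal effector cells, fell by 1.17 on the log2 scale (adjusted p 0.0288).

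Among activating receptors and adaptors, 2 of 10 genes tested rose, Slamf7 (1.46) and the costimulatory receptor Cd27 (0.77), and 1 fell, Klrk1, the gene of NKG2D (-0.73). Of 11 inhibitory receptors tested, 3 rose, Cd160 (1.93), Pdcd1, the gene of PD-1 (1.04), and Tigit (0.67), and none fell. Of 11 death ligands, cytokines and chemokines, 4 rose and none fell, led by the chemokines Ccl5 (2.70, adjusted p 0.00185), Xcl1 (2.57, adjusted p 0.0128) and Ccl4 (2.39, adjusted p 0.0465). Of 14 cytokine receptors and signalling genes, 3 fell and none rose: Ifngr2 (-1.32), Il2ra (-1.24) and Il18r1 (-0.91). None of 6 further granzymes passed the filter on low counts in any gate. These lists stand beside 2.1% of all genes called higher and 3.59% called lower. Most of these calls were lost without interleukin 17 marker cells: 7 of the 26 called genes of all lists were called again by edgeR in that fit, among them Eomes (log2 fold change 1.37), Ccl5 (2.10), Slamf7 (1.24), Rab27a (0.68) and Ifngr2 (-1.29). Of the 26, 21 kept their direction and 5 changed sign without being called, among them Zeb2 (0.26) and Klrk1 (0.63). In the remaining cells alone none of the 26 was called, and 24 kept their direction.

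Across the 24 sums of 6 libraries by 4 gates, Nkg7 was most like Ccl5 (Pearson r 0.98 of log2(CPM + 1)), Prf1 like Arsb (0.98), Fasl like Mctp2 (0.97) and Eomes (0.97), and Gzmk like Ms4a6b (0.96). Klrg1 was most like Setbp1 (0.95), Gzmb like Dapk2 (0.94), Serpinb6b (0.94) and Serpinb9 (0.94), Gzma like Klrc2 (0.94), Ifng like Insl6 (0.92) and Gzmm like Socs6 (0.89). The search covered 8334 genes with a mean of at least 10 CPM. Sums of 1 gate share their cell type and sums of 1 library their cells' source, so these values mostly describe the order of the gates and carry no p.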

How the data were processed

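Single-cell RNA was measured in 6 lung libraries (10x Genomics GEM-X 3' chemistry). The deposited tables hold raw UMI counts per gene and barcode, which the authors made with Cell Ranger 8.0.1 and mm10, per the submitters' processing notes, with no normalization. Settings that called cells were not given in the sources used here.

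Retained barcodes had at least 300 genes and 500 UMIs, with mitochondrial UMIs at 15% or less. Predicted doublets (2 simulated doublets per cell, 30 components, 50 neighbours, 0.4% per 1000 barcodes) were left out, 5.21% to 6.75% of a library. The natural killer gate needed at least 2 UMIs over Ncr1, Klrb1c and Klre1 and none of Cd3e, Cd3d and Trac; T gates needed at least 2 over Cd3e, Cd3d and Cd3g, with Cd8a and Cd8b1, Cd4 or Trdc. Cells with more than 2 UMIs of another lineage's markers were excluded. Basophils that carried epithelial UMIs were counted with the basophil or mast gate in an alternative chosen after seeing the data; it is the one whose levels are printed, and the epithelium is printed without them.

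Counts were summed per library and gate and tested with edgeR 4.0.16 (quasi-likelihood, filterByExpr, TMM, group alone as the design, Benjamini-Hochberg over all genes of a gate, threshold 0.05) in R 4.3.3. The standard error of a log2 fold change was derived from its F statistic. The script was tested on simulated data. CPM are these counts per 1e6 UMIs. DESeq2 1.42.0 was an alternative, beside other scalings, filters, gates, the replicate block and leaving out each library. Shares of cells were compared after thinning to 3000 UMIs, which left out 32 and 21 natural killer, 5 and 0 CD8 T, 11 and 7 CD4 T, 1 and 2 gamma-delta T, and 56 and 84 B cells (p16-DTR-labelled libraries, then controls). Motifs were searched in RefSeq windows of 250 bases. Other tools were scikit-learn 1.9.0, scipy 1.17.1, numpy 2.4.6, pandas 2.3.3 and matplotlib 3.10.9 in Python 3.11.15.

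The text names the 9 genes in every gate, and per pathway list and gate up to 3 of those called, ranked by the size of their log2 fold change. For each of the 9 it names the most similar genes by Pearson correlation, up to 3. The interleukin 17 and naive marker lists were used without 1 marker each, which is not reported here; the naive-marker alternative with that marker is therefore not used here. Members, lists and gates were chosen with earlier results of these data known.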

Additional observations from a re-analysis of the deposited data

Results flagged for a closer look

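Prf1 stood out because the difference between the groups was itself tested to differ between the 4 gates, with an edgeR adjusted p of 0.0497. Its log2 fold change was 2.03 in CD4 T cells, 1.07 in gamma-delta T cells, 0.29 in CD8 T cells and 0.12 in natural killer cells. With 1 library left out the adjusted p ranged from 0.0178 to 0.316.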

How the results depend on the processing

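Over the alternatives, the CD4 T gate kept 4 to 8 of the 9 genes called in every setting but the 2 chosen after seeing the data that left out interleukin 17 marker cells: 2 genes were called without these cells, and 0 without interleukin 17 marker, Foxp3 and naive-marker cells. Leaving out each library in turn gave 6 to 7, beside 322 to 520 genes of the gate. In natural killer cells 1 gene, Gzmb, was called higher with no filter on low counts, beside 503 of all 17209 genes. In CD8 T cells 1 was called higher by DESeq2, beside 90 of 11364 genes. With no filter 1 was called higher (Ifng) and 1 lower (Gzma), beside 214 of 19994 genes. Leaving out 1 library gave 0 to 1, beside 0 to 8 genes of the gate. In gamma-delta T cells 3 were called higher and 1, Gzmb, lower with no filter, beside 176 of 16891 genes. Leaving out 1 library gave 0 to 2 genes with a called difference between gates. The share of natural killer cells did not overlap between the groups for 1 gene without thinning (Gzmb) and for 1 gene thinned to 5000 UMIs (Fasl), against 0 at 3000 UMIs. Genes called over the whole gate ranged over the alternatives from 0 to 503 in natural killer, 0 to 214 in CD8 T, 0 to 1078 in CD4 T and 0 to 176 in gamma-delta T cells, each highest with no filter on low counts.

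Some log2 fold changes that were not called changed sign; the cause was not tested. Without naive-marker cells, those with both Ccr7 and Lef1 (a definition chosen after seeing the data), they were -0.092 for Fasl and -0.0043 for Nkg7 in CD8 T cells. With 1 library left out, values ranged from -0.83 to 0.0026 for Gzmm in natural killer cells. In CD8 T cells they ranged from -0.11 to 1.08 for Gzmb, from -0.099 to 0.58 for Gzmm and from -0.40 to 0.22 for Klrg1, and in CD4 T cells from -0.22 to 0.26 for Gzmm. In gamma-delta T cells they ranged from -1.03 to 0.58 for Gzma, from -0.14 to 1.14 for Nkg7 and from -3.09 to 0.52 for Klrg1. Equal cell numbers gave -0.15 for Ifng in natural killer cells. Klrg1 in gamma-delta T cells was -0.048 by DESeq2 and -0.11 with no exclusion of other lineages.

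The replicate numbers of the labels were not shown to pair the libraries: same-numbered libraries correlated at -0.10 to 0.16 in their deviations from the group means, and only in CD8 T cells did each correlate best with its own number. With the replicate block, 6 genes were called in CD4 T cells, 1 in CD8 T cells (Ifng) and 0 in the other 2 gates, and over all genes 578, 59, 6 and 0 were called in CD4 T, CD8 T, natural killer and gamma-delta T cells. The block turned the log2 fold change of Gzma to 0.17 and of Klrg1 to -0.25 in gamma-delta T cells.

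Depth limits low genes: Gzmm in CD4 T cells rested on 91 UMIs and Gzmk in natural killer cells on 19. Cell counts per library were 46 to 172 (natural killer) and 54 to 93 (gamma-delta T), against 171 to 578 CD8 and 204 to 401 CD4 T cells. How far the number of cells limits each gate was not tested.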

Other observations

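Among the marker gates outside the lymphocytes, Gzmb was highest in basophils or mast cells. Retained cells that no gate took also held Gzmb UMIs, and their cell types were not determined. In the epithelial marker gate, 92 cells had at least 3 Gzmb UMIs, and 91 of them (98.9%) also carried basophil markers; all 259 cells of the gate with basophil markers together held 2434 of its 2450 Gzmb UMIs. In basophils or mast cells Gzmb had 590, 418 and 1142 CPM in the p16-DTR-labelled libraries and 978, 764 and 303 CPM in controls, with overlap. With cells that carried epithelial UMIs excluded, as first set, the values were 829, 15.9 and 2507 CPM against 586, 1522 and 0 CPM, also with overlap.

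Klrg1 in type 2 innate lymphoid cells had 85.6, 168 and 168 CPM in the p16-DTR-labelled libraries and 119, 220 and 75.9 CPM in controls, also with overlap. Gzmk, Ifng and Fasl were each found in 0 of 105 of these cells, which allows up to 2.86% of cells with a UMI, for counting error only, and sets no limit on cells expressing them.

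Over the 633 thinned natural killer cells of all libraries, 596 had a Gzma UMI. Of these, 83.9% also had Gzmb and 94.3% had Prf1, against 16.2% and 48.6% of the few cells without Gzma. Klrg1 was found in 47.8% of the first and 5.41% of the latter, and Nkg7 in 99.3% and 48.6%. Whether the cells without Gzma are all natural killer cells was not tested. These shares pool cells of all libraries and are a description.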
